A study of Homo sapiens with 6 samples.

Results

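The ERBB receptor tyrosine kinases, their ligands and the receptor MET were followed in Huh7 cells, a human hepatoma line, after an siRNA against ASGR1. The 10 genes were taken by name from the 57905 Ensembl IDs of the deposited table: the receptors EGFR, ERBB2 and ERBB3, the EGF-like ligands AREG, EREG, TGFA, HBEGF and BTC, the feedback inhibitor ERRFI1, and MET. All 10 were matched. The tested group was 3 libraries of Huh7 cells transfected with siASGR1, and its control was 3 libraries transfected with a scrambled siRNA (siControl), all harvested after 72 h. ASGR1 encodes a subunit of the hepatic asialoglycoprotein receptor. The labels do not say whether the libraries of a group came from separate cultures, and the spread behind every p-value may therefore be technical.

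EGF-like ligands are made as membrane-bound precursors that metalloproteases cut loose. They bind EGFR, whereas ERBB2 has no known ligand and ERBB3, which binds neuregulins, has a very weak kinase, so that both signal mainly as dimer partners. ERRFI1, also called MIG6, is induced by the pathway and blocks the EGFR kinase, and MET, the receptor of hepatocyte growth factor, acts beside EGFR as a growth receptor of hepatocytes.

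The target was checked first. ASGR1 had 4.60, 4.82 and 4.71 FPKM (fragments per kilobase of gene, scaled to library depth) in the siASGR1 libraries of the whole-series table, against 17.54, 17.56 and 16.90 FPKM in siControl. The single-library files gave 14.65, 15.81 and 14.04 FPKM for the same siASGR1 libraries, and ASGR1 was the only gene of the 57905 whose deposited values differed. ASGR1 was 3.68-fold lower in siASGR1 by the whole-series table and 1.17-fold lower by the single-library files. Its log2 fold changes were -1.68 and -0.21 (limma adjusted p = 1.75e-06 and 0.00954). The smaller change lies near -0.134, where the 13568 tested genes had their median. Whether the target was lowered well beyond that median therefore rests on the source, and which source is right was not tested. The values of all 10 genes described here were the same in both. The steps between low values gave 18479000 to 19249000 fragments per siASGR1 library and 16327000 to 19322000 per siControl library. All 8 hepatocyte markers examined (among them ALB, AFP and HNF4A) were called higher, with summed levels of 6111 to 6231 FPKM in siASGR1 and 3533 to 3672 FPKM in siControl.

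Promoter sequences are shown for 4 genes that span the outcomes below: HBEGF, the member with the largest difference, EGFR, which was lower, MET, which was higher, and AREG, which was nearly silent. Each is the 250 bases before the annotated start, 5′ to 3′, from RefSeq on GRCh38.p14; such a window was found for 9 of the 10 genes, all except ERBB3. Capitals mark matches on either strand. The GC box was searched as GGGCGG, the TATA box as TATAAA and the cAMP response element as TGACGTCA.
HBEGF, chr5:140346604-140346853, minus strand: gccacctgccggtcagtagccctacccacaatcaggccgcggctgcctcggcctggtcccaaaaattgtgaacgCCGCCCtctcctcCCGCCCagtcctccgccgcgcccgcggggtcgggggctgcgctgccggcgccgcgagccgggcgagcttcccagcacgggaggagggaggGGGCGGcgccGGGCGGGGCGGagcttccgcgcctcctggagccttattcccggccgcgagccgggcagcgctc
EGFR, chr7:55018767-55019016, plus strand: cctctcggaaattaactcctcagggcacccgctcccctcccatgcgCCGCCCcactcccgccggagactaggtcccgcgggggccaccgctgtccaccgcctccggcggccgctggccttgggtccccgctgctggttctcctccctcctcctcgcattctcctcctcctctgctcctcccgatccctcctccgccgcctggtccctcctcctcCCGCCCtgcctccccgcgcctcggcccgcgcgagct
MET, chr7:116671946-116672195, plus strand: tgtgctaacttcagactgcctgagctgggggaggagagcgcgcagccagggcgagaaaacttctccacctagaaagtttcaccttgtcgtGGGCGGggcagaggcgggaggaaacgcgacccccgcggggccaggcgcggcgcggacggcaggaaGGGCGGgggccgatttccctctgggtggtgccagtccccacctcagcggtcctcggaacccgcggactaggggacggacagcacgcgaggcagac
AREG, chr4:74444886-74445135, plus strand: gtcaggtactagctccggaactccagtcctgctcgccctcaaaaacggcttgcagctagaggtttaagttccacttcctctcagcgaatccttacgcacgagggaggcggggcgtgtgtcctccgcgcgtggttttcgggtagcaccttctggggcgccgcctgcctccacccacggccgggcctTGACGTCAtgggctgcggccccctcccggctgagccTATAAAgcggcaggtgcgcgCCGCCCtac
The HBEGF window held 5 GC boxes, of which a pair overlaps, and 76.4% G and C. EGFR and MET held 2 GC boxes each and neither had a TATA box. AREG held 1 cAMP response element, 1 TATA box and 1 GC box. Over 35116 windows of the same length, a GC box was found in 42.6%, a TATA box in 10.7% and a cAMP response element in 1.65%. For the AP-1 site, TGANTCA with any base at N was searched on both strands, a looser pattern than the consensus, which has C or G there. It was present in 6.57% of windows and, among the 9, in the ERBB2 window alone. That match was TGATTCA, so none of the 9 windows held the consensus. The ERBB2 window, chr17:39687844-39688093, was the one nearest the outermost start of the gene model, and any other annotated start was not searched. These matches are descriptions of the letters and do not show binding.

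The receptors went in both directions. ERBB3 and ERBB2 were higher and EGFR was lower in siASGR1. In FPKM, ERBB3 stood above EGFR in every siASGR1 library and below it in every siControl library. MET was also higher. Of the 10 genes, 6 passed the filter on low values (at least 1 FPKM in at least 3 of the 6 libraries), and of these 3 were called higher and 3 lower at an adjusted p under 0.05. Of all 13568 genes tested, 61.3% were called (20.9% higher and 40.4% lower), so being called sets these 6 genes apart little from the rest. The groups did not overlap for any of the 6, against 67.3% of all tested genes.

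EGFR (ENSG00000146648; GENCODE v29 on GRCh38, chr7:55019021-55211628, plus strand) had 26.28, 22.65 and 25.72 FPKM in siASGR1, against 31.58, 32.07 and 33.14 FPKM in siControl. All siASGR1 libraries lay below all siControl libraries, and the lowest value was that of siASGR1 replicate 2. Its mean was 24.9 ± 1.95 FPKM in siASGR1 and 32.3 ± 0.80 FPKM in siControl (SD, n = 3 each), a 1.30-fold lower level. The log2 fold change was -0.36 (SE 0.06, limma adjusted p = 0.00157). With upper-quartile scaling this call was lost (log2 fold change -0.14, limma adjusted p = 0.0552). EGFR-AS1 overlaps EGFR on the other strand and was at 1.77 to 2.81 FPKM; the strand setting of the counting is not given, so reads of the 2 genes cannot be told apart.

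ERBB3 (ENSG00000065361; chr12:56076799-56103505, plus strand) had 31.77, 30.07 and 33.70 FPKM in siASGR1, against 20.56, 20.58 and 20.32 FPKM in siControl. The siControl libraries lay close together, and every siASGR1 library was higher. The level was 1.55-fold higher, with a log2 fold change of 0.61 (SE 0.05, limma adjusted p = 4.99e-05).

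ERBB2 (ENSG00000141736; chr17:39687914-39730426, plus strand), the preferred partner of the other ERBB receptors, had 10.30, 10.18 and 10.29 FPKM in siASGR1, against 7.30, 7.50 and 6.30 FPKM in siControl. Here siControl replicate 3 was the lowest library, and the groups did not overlap. The level was 1.46-fold higher (log2 fold change 0.49, SE 0.07, limma adjusted p = 0.000548). Both PGAP3 and MIEN1 overlap the ERBB2 locus on the other strand. PGAP3 had 2.72, 2.86 and 2.75 FPKM in siASGR1 and at most 1.88 FPKM in siControl, the same direction as ERBB2. MIEN1 had 13.97, 13.13 and 12.89 FPKM in siASGR1 and 21.06, 20.17 and 21.78 FPKM in siControl, the opposite direction.

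**Figure D1:**
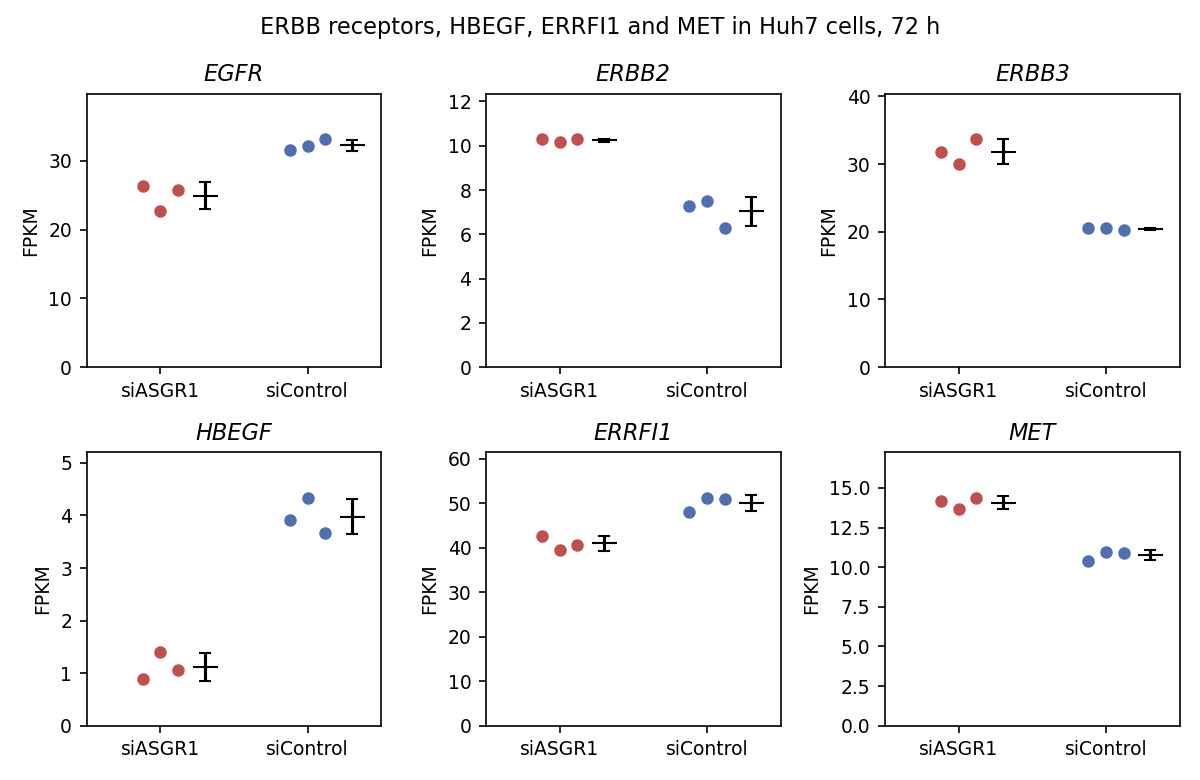
FPKM of the 6 genes that passed the filter, with 1 point per library (siASGR1 red, siControl blue), the mean as a bar and ± SD as whiskers (n = 3 per group); each axis starts at 0. ERBB2, ERBB3 and MET lie higher and EGFR, HBEGF and ERRFI1 lower in siASGR1, with no overlap between groups.

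The balance between receptors was read within each library, where the scaling of the library drops out. The ratio of ERBB3 to EGFR was 1.21, 1.33 and 1.31 in siASGR1, against 0.65, 0.64 and 0.61 in siControl, a 2.02-fold difference. ERBB2 to EGFR was 0.39, 0.45 and 0.40 in siASGR1, against 0.23, 0.23 and 0.19 in siControl, a difference of 0.93 on the log2 scale. Both ratios separated the groups completely, but an exact two-sided permutation test of 3 libraries against 3 cannot go below p = 0.1, which is the value each gave (0.129 adjusted over the 9 ratios and shares compared).

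As shares of the summed FPKM of the 3 receptors, EGFR took 38.4%, 36.0% and 36.9% in siASGR1, against 53.1%, 53.3% and 55.5% in siControl. ERBB3 took 46.5%, 47.8% and 48.3% in siASGR1, against 34.6%, 34.2% and 34.0% in siControl. By FPKM, EGFR was thus the most abundant of the 3 receptor mRNAs in each siControl library and ERBB3 in each siASGR1 library. This order in siASGR1 depends on the gene lengths (12521 bases for EGFR and 9039 for ERBB3 in GENCODE v29). By estimated reads, EGFR was above ERBB3 in every siASGR1 library too (6153, 5241 and 6199, against 5369, 5023 and 5864). ERBB2 was the least abundant throughout, with 15.3% ± 0.75 in siASGR1 and 11.8% ± 1.06 in siControl (SD, n = 3 each). The sum of the 3 was 62.9 to 69.7 FPKM in siASGR1 and 59.4 to 60.2 FPKM in siControl. ERBB4, the remaining receptor of the family, was at most 0.01 FPKM in siASGR1 and 0.03 FPKM in siControl.

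**Figure D2:**
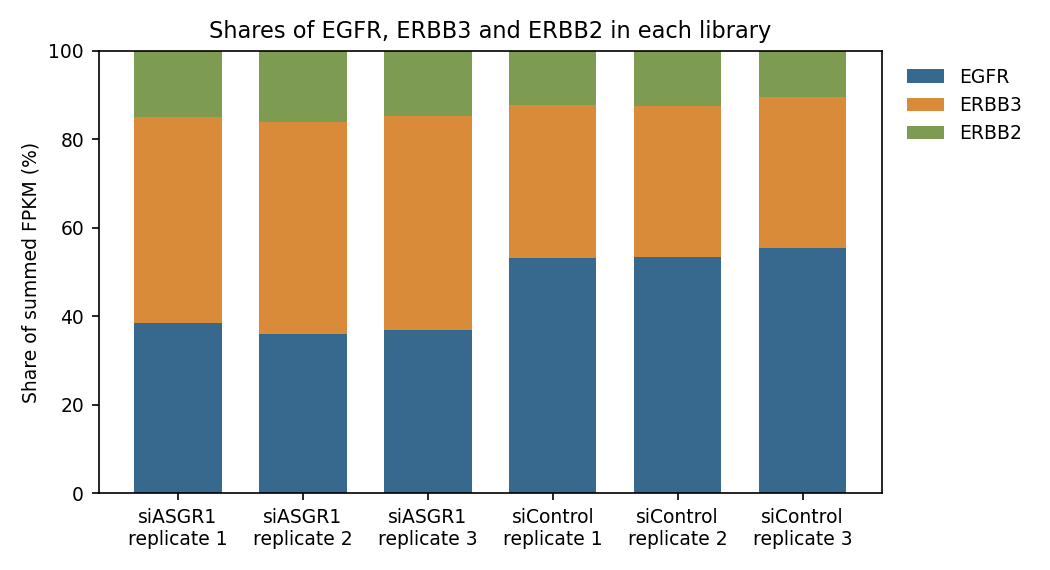
Share of each receptor (percent, y axis) in the summed FPKM of EGFR, ERBB3 and ERBB2, with 1 stacked bar per library (x axis), siASGR1 on the left. The EGFR share is 36.0% to 38.4% in siASGR1 and 53.1% to 55.5% in siControl.

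Among the ligands, HBEGF was the only one of the 5 to pass the filter. HBEGF (ENSG00000113070; chr5:140332843-140346631, minus strand), a heparin-binding ligand of EGFR and ERBB4, had 0.89, 1.40 and 1.05 FPKM in siASGR1, against 3.92, 4.34 and 3.67 FPKM in siControl. These values correspond to about 50 to 78 reads per siASGR1 library and 181 to 229 per siControl library. The highest siASGR1 library was far below the lowest siControl library. The mean level was 3.57-fold lower in siASGR1 (1.11 ± 0.26 FPKM, against 3.98 ± 0.34 FPKM in siControl, SD, n = 3 each). The difference in log2(FPKM + 1) was -1.24, a scale on which changes of low genes come out too small (SE 0.11, limma adjusted p = 7.3e-05). The siControl libraries were enough for HBEGF to meet the filter, and 1 siASGR1 library was under 1 FPKM.

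The other 4 ligands were near or at 0 and were not tested. EREG, epiregulin, had no read in any of the 6 libraries; 3 reads, the limit that a count of 0 allows, would be 0.0272 to 0.0321 FPKM (counting error only). AREG, amphiregulin, was listed at 0 in every siASGR1 library and in 2 siControl libraries, and at 0.04 FPKM, about 1 read, in siControl replicate 3. The hg19 assembly holds a near-identical copy of AREG, so reads could be shared or dropped and the AREG values are uncertain. TGFA, transforming growth factor alpha, was listed at 0 apart from 0.01 FPKM in siControl replicate 2.

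BTC, betacellulin, had 0.28, 0.08 and 0.04 FPKM in siASGR1, against 0.06, 0.00 and 0.02 FPKM in siControl, which is about 15, 4 and 2 reads in siASGR1 and 3, 0 and 1 in siControl. The groups overlapped: siASGR1 replicates 1 and 2 were above every siControl library and siASGR1 replicate 3 was not. Of the summed FPKM of the 5 ligands, HBEGF took 76.1%, 94.6% and 96.3% in siASGR1, against 98.5%, 99.8% and 98.4% in siControl (exact two-sided permutation p = 0.1, the smallest possible). That difference of -9.89 percentage points was -3.42 without siASGR1 replicate 1. The AREG share was 0 in siASGR1 and 0%, 0% and 1.07% in siControl (exact permutation p = 1). The summed ligand level was 1.17, 1.48 and 1.09 FPKM in siASGR1, against 3.98, 4.35 and 3.73 FPKM in siControl. AREG entered these sums and shares at its listed values, so they carry the uncertainty of the near-identical hg19 copy.

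EPGN, EREG, AREG and BTC lie together on chromosome 4 within 486.2 kb. ALB and AFP, genes of the abundant plasma proteins albumin and alpha-fetoprotein, lie on the same arm, and 852.3 kb separate AFP from EPGN. AFP was at 3422 to 3606 FPKM in siASGR1 and 2077 to 2202 FPKM in siControl, while none of the 4 ligand genes exceeded 0.28 FPKM in any library.

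Of the 7 other genes of the family that were listed (ERBB4, EGF, EPGN and NRG1 to NRG4), NRG4 alone passed the filter. NRG4, a neuregulin that binds ERBB4, was 0.83 ± 0.14 FPKM in siASGR1 and 1.37 ± 0.07 FPKM in siControl (SD, n = 3 each; limma adjusted p = 0.0141, and 0.0567 with upper-quartile scaling). All 3 siASGR1 libraries were under 1 FPKM, so NRG4 met the filter through siControl alone. NRG3, also an ERBB4 ligand, was 0.61, 0.60 and 0.75 FPKM in siASGR1, against 0.72, 0.87 and 0.57 FPKM in siControl, and the groups overlapped. EGF was at most 0.05 FPKM in siASGR1 and 0.09 FPKM in siControl. NRG1, a ligand of ERBB3, was at most 0.01 FPKM in siASGR1 and 0.05 FPKM in siControl. NRG2 reached 0.02 FPKM in siASGR1 and 0.05 FPKM in siControl, and EPGN 0.03 FPKM in both.

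ERRFI1 (ENSG00000116285; chr1:8004404-8026308, minus strand) was the most abundant of the 10 genes in both groups. It had 42.73, 39.58 and 40.55 FPKM in siASGR1, against 47.95, 51.25 and 50.88 FPKM in siControl. The groups did not overlap and the level was 1.22-fold lower (log2 fold change -0.28, SE 0.05, limma adjusted p = 0.00139). The call was lost with upper-quartile scaling, where the log2 fold change was -0.06 (limma adjusted p = 0.304). Its ratio to EGFR was 1.65 ± 0.09 in siASGR1 and 1.55 ± 0.04 in siControl (SD, n = 3 each), and the groups overlapped (exact two-sided permutation p = 0.2). AL034417.4 overlaps ERRFI1 on the other strand. As the strand setting is not given, reads of these genes cannot be told apart.

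MET (ENSG00000105976; chr7:116672390-116798386, plus strand) had 14.20, 13.65 and 14.39 FPKM in siASGR1, against 10.38, 10.97 and 10.88 FPKM in siControl. Every siASGR1 library was above every siControl library, and the level was 1.31-fold higher (log2 fold change 0.36, SE 0.04, limma adjusted p = 0.000372). The ratio of MET to EGFR was 0.54, 0.60 and 0.56 in siASGR1, against 0.33, 0.34 and 0.33 in siControl (exact two-sided permutation p = 0.1, the smallest possible). MET and EGFR lie on the same chromosome and differed in opposite directions.

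Of 10 genes of the HGF and MET axis, 4 were tested, of which 2 were called higher and 1 lower. HGF, the MET ligand, was listed at 0 in all 6 libraries. PLXNB1, a semaphorin receptor that associates with MET, was 42.1 ± 0.48 FPKM in siASGR1 and 27.7 ± 0.95 FPKM in siControl (limma adjusted p = 2.55e-05). MST1, which encodes an HGF-like protein, was 14.8 ± 1.11 FPKM in siASGR1 and 7.37 ± 0.86 FPKM in siControl (limma adjusted p = 0.000113), but near-identical copies such as MST1L make its value uncertain. SPINT1, an inhibitor of the protease that activates HGF, was 0.43 ± 0.16 FPKM in siASGR1 and 1.66 ± 0.30 FPKM in siControl (limma adjusted p = 0.000928); it too met the filter through siControl alone. HPN, hepsin, a protease that can activate HGF, was 6.67 ± 0.23 FPKM in siASGR1 and 8.32 ± 1.38 FPKM in siControl (limma adjusted p = 0.0604). The remaining genes were low: HGFAC reached 0.19 FPKM in siASGR1 and 0.25 FPKM in siControl, and MST1R, the receptor of the MST1 product, 0.31 FPKM in siASGR1 and 0.30 FPKM in siControl. ST14 reached 0.12 FPKM in siASGR1 and 0.18 FPKM in siControl, SPINT2 0.10 FPKM in siASGR1 and 0.15 FPKM in siControl, and SEMA4D, a PLXNB1 ligand, 0.08 FPKM in siASGR1 and 0.29 FPKM in siControl.

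The order of the levels was ERRFI1, ERBB3, EGFR, MET, ERBB2, HBEGF and BTC in siASGR1, followed by the 3 ligands listed at 0. In siControl it was ERRFI1, EGFR, ERBB3, MET, ERBB2 and HBEGF, followed by the other ligands near 0. The ranges over the 3 libraries of neighbours from ERRFI1 down to HBEGF did not overlap in either group. FPKM are set per length of each gene, which makes these levels comparable between genes only as far as the authors' gene models hold.

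The 6 tested genes kept their direction under the deposited values and under median-of-ratios and upper-quartile scaling. Over all tested genes the median log2 fold change was -0.134 as deposited, and it shifted by 0.101 and 0.188 under those scalings. The share of all genes called was 59.3% with median-of-ratios scaling, where all 6 of these genes were called, and 59.2% with upper-quartile scaling, where 4 were. Its split moved to 27.9% higher and 31.4% lower with median-of-ratios scaling and to 35.1% higher and 24.1% lower with upper-quartile scaling. ERBB3, ERBB2 and MET lay above the median of all tested genes, and HBEGF, EGFR and ERRFI1 below it.

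**Figure D3:**
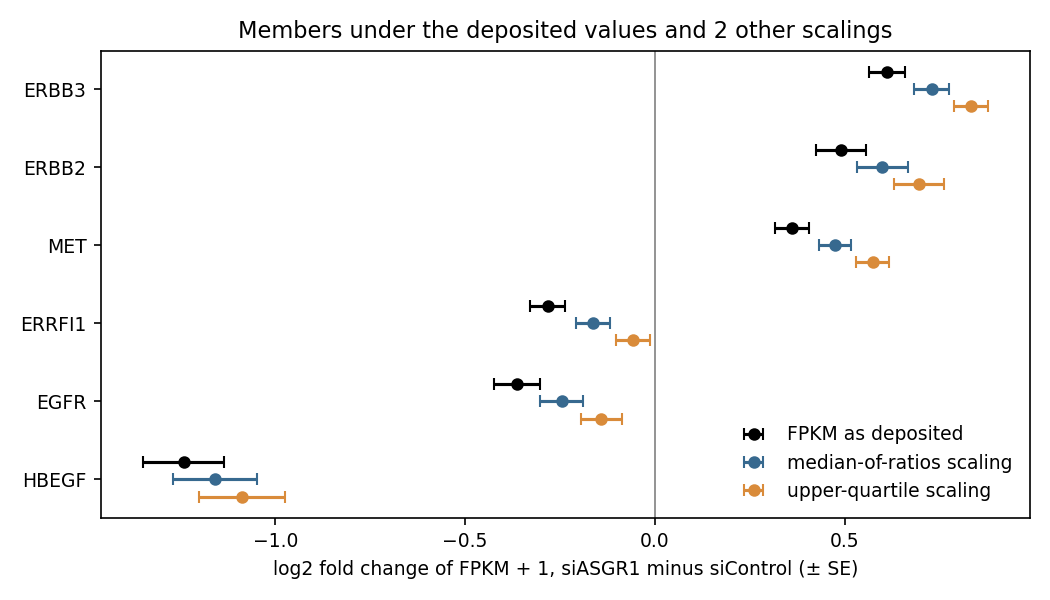
Log2 fold change of FPKM + 1 (x axis, siASGR1 minus siControl, whiskers ± SE of the limma fit) of the 6 tested genes (y axis) for the deposited FPKM and for 2 other scalings. ERBB3, ERBB2 and MET are above 0 and HBEGF, EGFR and ERRFI1 below 0 in each, with ERRFI1 at -0.06 under upper-quartile scaling.

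Genes that release, carry or end the receptors' signal were read from lists, and in each of the 5 lists more genes fell than rose with the deposited FPKM and with median-of-ratios scaling, as over all tested genes (40.4% lower and 20.9% higher as deposited). With upper-quartile scaling the balance did not hold for 3 lists: ligand release had 3 higher and 3 lower, the adaptor and RAS to ERK genes 9 higher and 4 lower, and the genes that end receptor signalling 5 higher and 3 lower. The PI3K and STAT genes (2 higher and 3 lower) and the ERK response genes (2 higher and 5 lower) kept it. Among 7 genes listed under ligand release, 1 rose, 3 fell and 3 did not pass. The gene that rose, ICMT, encodes a carboxyl methyltransferase of prenylated proteins such as RAS, which is not a role in ligand release, and none of the other 6 was called higher with the deposited FPKM. ADAM17, the main protease that releases HBEGF, TGFA and AREG, was 8.88 ± 0.43 FPKM in siASGR1 and 12.5 ± 0.24 FPKM in siControl (limma adjusted p = 0.000208). Its cofactors RHBDF1 and RHBDF2 were 1.67-fold and 1.78-fold lower. RHBDF2 was low, with 1.02, 0.91 and 1.02 FPKM in siASGR1, against 1.75, 1.70 and 1.80 FPKM in siControl. The siControl libraries were enough for RHBDF2 to meet the filter. ICMT was 1.27-fold higher. ADAM10, the protease that releases EGF and BTC, was 31.6 ± 1.62 FPKM in siASGR1 and 32.8 ± 1.51 FPKM in siControl (limma adjusted p = 0.44); it was named after its value was seen. The list's median log2 fold change was -0.149, against -0.134 over all tested genes.

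Of 23 adaptor and RAS to ERK genes, all tested, 4 rose, 11 fell and 8 did not pass, with a median of -0.118. With median-of-ratios scaling the counts were 5 higher and 7 lower. The adaptor gene CRKL was 1.45-fold lower and SOS1, the RAS exchange factor bound by GRB2, 1.99-fold lower. SHC1, an adaptor that docks on activated EGFR, ERBB2 and ERBB3, was 81.3 ± 3.13 FPKM in siASGR1 and 61.2 ± 0.86 FPKM in siControl. Of 8 tested PI3K and STAT genes, 2 rose and 5 fell (median -0.226). STAT3, a transcription factor, was 1.40-fold lower, and PIK3CB, a catalytic subunit of PI3K, was 1.46-fold lower. AKT2 was 1.22-fold lower, a call lost with upper-quartile scaling (limma adjusted p = 0.387). The genes that rose were AKT1 and STAT5B, both named after their values were seen. AKT1 was 6.69 ± 0.25 FPKM in siASGR1 and 5.87 ± 0.40 FPKM in siControl (limma adjusted p = 0.0486). STAT5B was 11.2 ± 0.22 FPKM in siASGR1 and 10.1 ± 0.33 FPKM in siControl (limma adjusted p = 0.0279).

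Of 15 tested genes listed as ending receptor signalling, 1 rose, 9 fell and 5 did not pass, with a median of -0.287. With median-of-ratios scaling 3 were higher and 8 lower. LRIG3, the gene that rose, was 12.6 ± 0.38 FPKM in siASGR1 and 11.4 ± 0.21 FPKM in siControl (limma adjusted p = 0.0356). It was named after its value was seen. SOCS5, which promotes EGFR breakdown, was 5.42 ± 0.45 FPKM in siASGR1 and 9.71 ± 0.36 FPKM in siControl. LRIG1, a membrane protein that restrains ERBB receptors and MET, was 1.40-fold lower. RNF41, the ubiquitin ligase that sets ERBB3 protein levels, was 1.28-fold lower, and the phosphatase gene PTPN12 1.23-fold lower; both calls were lost with upper-quartile scaling (limma adjusted p = 0.0642 for RNF41 and 0.256 for PTPN12).

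Of 14 tested genes that respond to ERK signalling, 1 rose, 8 fell and 5 did not pass (median -0.216; 1 higher and 6 lower with median-of-ratios scaling). DUSP4, an ERK phosphatase, was 1.07 ± 0.05 FPKM in siASGR1 and 4.03 ± 0.06 FPKM in siControl (limma adjusted p = 8.93e-06). DUSP5 and SPRY4, further feedback inhibitors, were 1.77-fold and 2.07-fold lower, and CCND1, cyclin D1, 1.48-fold lower. DUSP6, the gene that rose, was 33.6 ± 0.43 FPKM in siASGR1 and 30.2 ± 0.78 FPKM in siControl (limma adjusted p = 0.011); it was named after its value was seen.

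**Figure D4:**
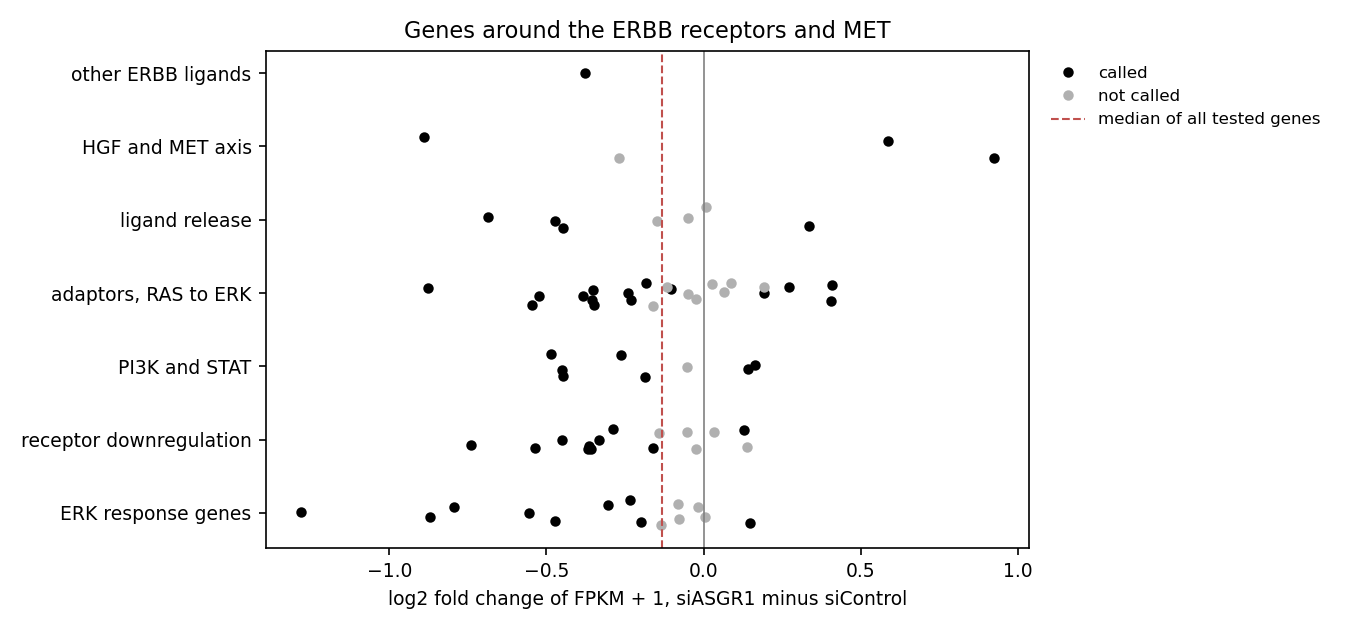
Log2 fold change of FPKM + 1 (x axis, siASGR1 minus siControl) of every tested gene in 7 lists around the receptors (y axis, jittered within a list); black points were called and grey points were not. The dashed line is the median of all tested genes, -0.134, and points lie on both sides of it in 6 of the lists, the exception being the list with 1 tested gene.

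The genes whose levels followed EGFR most closely over the 6 libraries were ZNF146 (Pearson r = 0.999), FAM20B (r = 0.999) and SPAG9 (r = 0.999). ZNF146 had 18.22, 15.37 and 17.51 FPKM in siASGR1, against 21.90, 22.39 and 23.06 FPKM in siControl. The 6 points share the 2 groups, and 1384 of 13075 named genes (10.6%) had r above 0.95, so a high value is common here.

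Markers of other cell types were read beside these results, since in bulk RNA fewer cells of a type and less RNA per cell cannot be told apart. Of 8 fibroblast markers, 3 were tested. COL1A1 was 0.02 to 0.03 FPKM in siASGR1 and 2.05 to 2.77 FPKM in siControl, COL1A2 was 0.02 FPKM in siASGR1 and 1.33 to 1.65 FPKM in siControl, and PDGFRA was higher, at 10.4 to 11.5 FPKM in siASGR1 and 4.40 to 4.58 FPKM in siControl. COL1A1 and COL1A2 met the filter through siControl alone. Of the 5 markers not tested, COL3A1 was 0.10 to 0.15 FPKM in siASGR1 and 0.66 to 0.81 FPKM in siControl, DCN at most 0.02 FPKM in siASGR1 and 0.19 to 0.26 FPKM in siControl, and LUM 0.27 to 0.52 FPKM in siASGR1 and 0.73 to 1.07 FPKM in siControl, without overlap. PDGFRB and THY1 were at most 0.22 FPKM and overlapped. The summed level of the 8 was 11.0 to 12.3 FPKM in siASGR1, nearly all of it PDGFRA, and 10.1 to 11.1 FPKM in siControl. The 4 endothelial markers found summed to at most 0.21 FPKM, with KDR and TEK at 0 in every library. Of 5 immune markers the defining gene PTPRC was at most 0.01 FPKM, and LYZ made up most of the sum, which was 115.9 to 119.5 FPKM in siASGR1 and 69.6 to 76.3 FPKM in siControl. The 5 biliary markers summed to 42.2 to 44.2 FPKM in siASGR1 and 44.5 to 45.9 FPKM in siControl, with KRT7 at 0, but single markers differed in opposite directions. KRT19 was 7.91 ± 0.19 FPKM in siASGR1 and 14.1 ± 1.70 FPKM in siControl (SD, n = 3 each; limma adjusted p = 0.000202). SOX9 was 31.3 ± 1.29 FPKM in siASGR1 and 27.3 ± 1.18 FPKM in siControl (limma adjusted p = 0.0119). SPP1, not tested, was 0.95 to 1.36 FPKM in siASGR1 and 0.13 to 0.41 FPKM in siControl, and EPCAM was 3.11 ± 0.38 FPKM in siASGR1 and 3.64 ± 0.04 FPKM in siControl (limma adjusted p = 0.0907). The part of these differences in the values of the ERBB genes and MET was not tested.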

How the data were processed

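Per the submitters' processing notes, the authors used bcl2fastq 2.17.1.14, cutadapt 1.9.1, HISAT2 2.0.1 and hg19. Not given in the sources used here: counting program, strand setting, annotation. What the authors deposited is FPKM with 2 decimals, as a whole-series table, which is used here and whose name calls it raw counts, and as single-library files. Symbols were found for 51996 IDs (89.8%). Coordinates and exon lengths are from GENCODE v29 on GRCh38, which is not the authors' build. Fragments per library were recovered from the steps between low FPKM (95.6% to 96.0% whole within rounding plus 0.01 reads, where chance gives 10.5% to 12.1%; depth was itself fitted to these values). Reads per gene are estimates.

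The 13568 genes that reached 1 FPKM in 3 or more libraries were fitted with limma 3.58.1 in R 4.3.3 on log2(FPKM + 1), with group as the only term and a trended prior, two-sided, with Benjamini-Hochberg adjustment over all tested genes. The fit was also run on simulated reads of 13124 genes, few of them changed and without a shift of whole libraries. That setting differs from these data, so no result here rests on it. Folds are of mean FPKM. Ratios were compared by exact permutation over libraries (scipy 1.17.1); 4 of the 9 (the HBEGF share and the 3 receptor shares) were added after the values were seen. Genes of the other lists were named by rule: every listed ligand, ERBB4 and the HGF and MET axis, and up to 4 called genes per list with the smallest p-values, of which 2 are not reported here. Members and lists were chosen with earlier results of these data known. Alternatives changed the scaling, pseudocount, filter, prior, block, source and each library. Libraries of a group, compared pairwise as reads, gave a chi-square per degree of freedom of 2.64 to 6.26, so none was counted as a copy. Python 3.11.15, pandas 2.3.3, numpy 2.4.6 and matplotlib 3.10.9 made the tables and plots.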

Additional observations from a re-analysis of the deposited data

How the results depend on the processing

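ERBB2, ERBB3, HBEGF and MET kept their direction and call under every alternative in which they were tested; HBEGF was not tested when FPKM of at least 5 was required. EGFR and ERRFI1 lost their calls with upper-quartile scaling alone (-0.142 and -0.058 on the log2 scale, limma adjusted p = 0.0552 and 0.304), which left 4 of the 6 called; the cause was not tested. Leaving out 1 library at a time kept all 6 calls, with EGFR between -0.404 and -0.301. The difference in the AREG share (siASGR1 minus siControl) ran from -0.536 to 0 percentage points, since it rests on about 1 read in siControl replicate 3. The labels do not say whether the same replicate numbers in both groups mark pairs. Deviations of same-numbered libraries correlated at -0.019, 0.002 and 0.012, which shows no shared effect but cannot exclude pairing. With a replicate block 8064 genes were called, against 8319 without it, and all 6 calls were kept. Depth limits the statements on AREG, EREG, TGFA and BTC, which rest on at most 15 reads per library. For AREG the near-identical copy in hg19 is a further limit, apart from depth.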
